A study of Mus musculus with 4 samples.

Results

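The 7 genes that encode the cyclin-dependent kinase (CDK) inhibitors of the mouse were followed through maps of open chromatin in the newborn hippocampus. They are Cdkn1a, Cdkn1b and Cdkn1c, the 3 genes of the Cip/Kip family, and Cdkn2a, Cdkn2b, Cdkn2c and Cdkn2d, the 4 genes of the Ink4 family. The genes were taken by name from the 21938 protein-coding genes of the GENCODE annotation, and all 7 were found there. In each list of peaks, a promoter peak of a gene was one whose summit lay within 2 kb of a transcription start site of that gene. Peaks in the gene body and in the 20 kb on either side were collected as well.

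CDK inhibitors hold back the kinases that drive a cell through its division cycle. The Ink4 proteins bind CDK4 and CDK6 and keep them from pairing with D-type cyclins, whereas the Cip/Kip proteins bind cyclin-CDK complexes more broadly. Both families take part when neural progenitors leave the cycle and become neurons. Cdkn2a is read from separate first exons into p16INK4A, which is a CDK inhibitor, and ARF, which stabilises p53 instead, and this locus with its neighbour Cdkn2b is a classic target of Polycomb repression.

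Chromatin was profiled by ATAC-seq, in which the transposase Tn5 inserts sequencing adapters where DNA is accessible. Nuclei came from whole hippocampi dissected at postnatal day 0 (P0), with 2 cKO and 2 Ctrl libraries, called cKO1, cKO2, Ctrl1 and Ctrl2 here by their replicate numbers. The cKO mice are labelled Kdm2bEmx1-delta-CxxC, that is, Emx1-Cre removed the exon for the CxxC zinc finger of KDM2B, through which this Polycomb partner binds CpG islands. The Ctrl mice are labelled Kdm2bfl/+ or Kdm2bfl/fl, without a statement of which library had which, and both groups carry floxed alleles. Emx1-Cre acts in the dorsal telencephalon, so that cells of other origin in the same tissue keep the intact gene. The labels do not say whether the libraries of a group came from separate animals, and the spread between them may be technical. The labels also name neural progenitor cells as the source, but the titles and the protocol name hippocampus, and no sort is described.

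The 4 lists were called separately and were of unequal length, with 46389 peaks in Ctrl1, 7037 in Ctrl2, 21404 in cKO1 and 44535 in cKO2. Ctrl2 stood apart from the others. In that library 60.5% of the peaks were repeat-masked, meaning that at least 50% of their bases are soft-masked in the reference, compared with 5.37 to 14.7% in the other libraries. A promoter peak was found for 58% of protein-coding genes in Ctrl1, 8.27% in Ctrl2, 40.3% in cKO1 and 55.9% in cKO2. Of 11 marker genes of the dorsal telencephalon and hippocampus, 10 had a promoter peak in Ctrl1, 0 in Ctrl2, 7 in cKO1 and 11 in cKO2. In the same order, a promoter peak was found for 3, 0, 1 and 2 of 5 interneuron markers, 2, 0, 0 and 1 of 4 oligodendrocyte lineage markers, 1, 0, 0 and 1 of 5 microglial markers, 1, 0, 1 and 0 of 4 endothelial markers and 2, 0, 2 and 2 of 3 choroid plexus markers. The part of these differences in the results on the inhibitor genes was not tested.

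The promoter sequences of the inhibitor genes are shown first, because the CxxC domain of KDM2B recognises unmethylated CpG dinucleotides. By sequence, all 7 genes had a CpG island at a promoter, as did 15469 of the 21938 protein-coding genes. RefSeq (GRCm38.p6) gave 9 windows for 6 of the 7 genes, each running from 250 bases before a start to 50 bases after it. Cdkn1c had no entry. In these windows of 300 bases the ARF start of Cdkn2a held 45 CpGs, the most among the inhibitor genes, and 1.93% of all 32851 windows held at least as many. The p16INK4A start of the same gene held 12 CpGs, which 39.6% of all windows reached. Cdkn1b held 30 (11.7% of windows), Cdkn2d 22 (23.1%) and Cdkn2b 18 (29.7%). The first start of Cdkn1a held 2 (85.9%) and its second start 23 (21.5%). Cdkn2c held 33 (8.56%) at the RefSeq start at position 109666756 and 8 (48.6%) at the one at 109665372. The former is not a GENCODE start, and its window lies after the first GENCODE start of the gene, at 109667189. The median over all windows was 7, so that 8 of these 9 windows lay above it and only that of the first Cdkn1a start lay below.

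**Figure D1:**
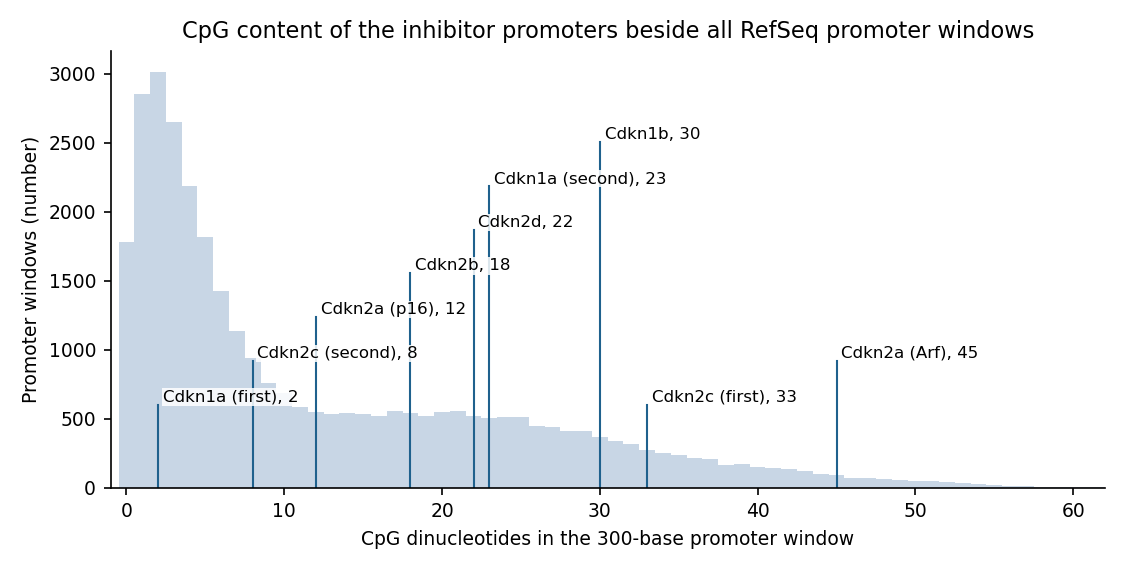
CpG dinucleotides (x axis) in each 300-base promoter window, with the number of RefSeq windows (y axis) as bars and the 9 windows of the inhibitor genes as labelled lines whose height has no meaning. The ARF window, at 45, lies in the tail of the distribution, and the window of the first Cdkn1a start, at 2, lies below the median of 7.

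The 5 sequences that the results turn on are printed below, 5′ to 3′ on the strand of the gene in GRCm38, with each CpG in capitals. Each is the part of the RefSeq window that lies before every annotated start in it. Cdkn1b and Cdkn2d are shown because their promoters were the most accessible of the 7, the ARF and p16INK4A sequences because the peak of Cdkn2a lay at one start and not at the other, and Cdkn1a because no peak lay at its first start.
Cdkn1b, chr6:134920151-134920400, plus strand: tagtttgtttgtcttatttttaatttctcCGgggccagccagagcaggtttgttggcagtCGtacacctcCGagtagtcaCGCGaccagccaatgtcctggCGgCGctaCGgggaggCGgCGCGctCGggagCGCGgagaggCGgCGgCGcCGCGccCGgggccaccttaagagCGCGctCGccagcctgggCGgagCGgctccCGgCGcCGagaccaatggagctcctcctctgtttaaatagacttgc
Cdkn2d, chr9:21291309-21291459, minus strand: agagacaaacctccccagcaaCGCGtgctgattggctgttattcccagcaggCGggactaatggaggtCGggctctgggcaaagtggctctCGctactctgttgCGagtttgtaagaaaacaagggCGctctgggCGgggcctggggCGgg
Cdkn2a at the ARF start, chr4:89294654-89294869, minus strand: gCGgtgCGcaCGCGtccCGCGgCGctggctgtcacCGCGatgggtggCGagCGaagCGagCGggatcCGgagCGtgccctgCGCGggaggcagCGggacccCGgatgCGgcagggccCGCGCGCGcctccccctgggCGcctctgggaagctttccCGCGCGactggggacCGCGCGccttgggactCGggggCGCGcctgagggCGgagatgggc
Cdkn2a at the p16INK4A start, chr4:89282193-89282442, minus strand: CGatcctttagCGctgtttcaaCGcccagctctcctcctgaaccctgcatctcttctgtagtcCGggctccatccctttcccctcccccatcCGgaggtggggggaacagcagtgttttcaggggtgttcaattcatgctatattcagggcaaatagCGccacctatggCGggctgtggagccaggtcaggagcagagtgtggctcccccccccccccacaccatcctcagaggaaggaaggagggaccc
Cdkn1a at the first start, chr17:29090729-29090978, plus strand: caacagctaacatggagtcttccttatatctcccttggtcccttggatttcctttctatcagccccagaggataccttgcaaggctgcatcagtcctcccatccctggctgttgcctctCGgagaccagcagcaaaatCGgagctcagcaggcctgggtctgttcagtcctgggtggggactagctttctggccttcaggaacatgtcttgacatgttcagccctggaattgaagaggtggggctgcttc
The printed stretches hold 28 CpGs in 250 bases for Cdkn1b, 9 in 151 for Cdkn2d, 35 in 216 at the ARF start, 7 in 250 at the p16INK4A start and 2 in 250 for Cdkn1a.

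Short motifs were counted on both strands of the 300-base windows. GGGCGG, a GC box, occurred 5 times in the window of Cdkn2d, 3 times at the ARF start and once each for Cdkn1b, Cdkn2b and the p16INK4A start, and 35.7% of all windows hold at least 1. It occurred 4 times at the CpG-rich start of Cdkn2c and 2 times at the second start of Cdkn1a, but not in the window of the first Cdkn1a start. CCAAT occurred 3 times in Cdkn1b and once each in Cdkn2d, at the p16INK4A start and at the CpG-poor start of Cdkn2c, and 37.4% of windows hold it. TTTCCCGC, a form of the E2F site, occurred once, at the ARF start, and 1.07% of all windows hold it. The other E2F forms searched, TTTCGCGC (0.323% of windows) and TTTGGCGC (0.514%), and TATAAA (13.6%) occurred in none of the 9 windows. These are matches of letters and overlap in part with the CpGs counted above.

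Within each list, promoters were ranked by the −log10 p of their strongest peak. The promoter percentile of a gene is the share of protein-coding genes with a weaker promoter peak in that library, and is 0 for a gene without one. A promoter peak was found for 7 of the 7 inhibitor genes in Ctrl1, for 1 in Ctrl2, for 4 in cKO1 and for 7 in cKO2. The mean was 4 ± 4.24 (SD, n = 2) in Ctrl and 5.5 ± 2.12 (SD, n = 2) in cKO, and the libraries of a group differed by more than the 1.5 genes between the groups. Among genes with a CpG island at a promoter, the share with a promoter peak was 79.1% in Ctrl1, 11.5% in Ctrl2, 56% in cKO1 and 76.4% in cKO2. The counts of inhibitor genes followed the same order of libraries as these shares. With each list cut to its 7037 strongest peaks, Cdkn1b kept its promoter peak in all 4 lists and Cdkn2d in every list but Ctrl2, and the other 5 genes had none (2, 1, 2 and 2 inhibitor genes in the order above, beside 26.1, 8.27, 21.02 and 23.2% of protein-coding genes). With a −log10 q of at least 5, Cdkn1b lost its peak in Ctrl2, and the other inhibitor genes kept theirs in the same lists.

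The 7 genes fell into 3 patterns of presence. Cdkn1b alone had a promoter peak in all 4 lists, as 8.02% of protein-coding genes did. Cdkn1a, Cdkn2c and Cdkn2d had one in every list but Ctrl2, as did 31.8% of protein-coding genes. Cdkn1c, Cdkn2a and Cdkn2b had one only in Ctrl1 and cKO2, as did 14%. These latter libraries had the longest lists, 1 from each group, and no inhibitor gene had a promoter peak in both libraries of one group and in none of the other.

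**Figure D2:**
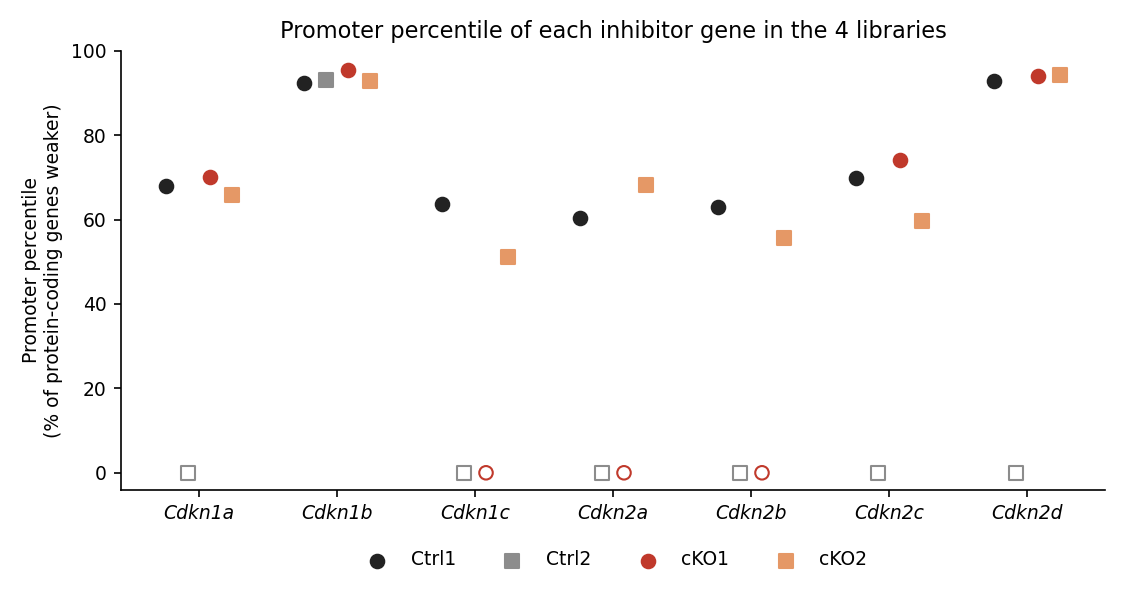
Promoter percentile (y axis, % of protein-coding genes with a weaker promoter peak in the same library) of the 7 inhibitor genes (x axis) in each library, with filled symbols for genes with a promoter peak and open symbols at 0 for those without. Cdkn1b lies between 92.3 and 95.5 in all 4 libraries, and Cdkn2d between 92.8 and 94.2 in the 3 libraries in which it has a promoter peak. In Ctrl2 any gene with a promoter peak lies at 91.7 or above.

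For the size of a peak, the number of fragments over its summit was recovered from the fold and p-value of the list. Scaled depth is that number divided by the lowest local background in the same list, which was 1.62 fragments in Ctrl1, 3.46 in Ctrl2, 2.07 in cKO1 and 1.81 in cKO2. The lowest scaled depth of any listed peak was 4.32, 3.46, 4.34 and 4.43 in these libraries, so that a promoter without a peak was not detectable at this depth, which does not show that it was closed. The median scaled depth of the strongest promoter peaks was 23.4 in Ctrl1, 6.06 in Ctrl2, 11.6 in cKO1 and 19.9 in cKO2. In whole tissue, an open promoter in fewer cells and a less open promoter in each cell cannot be told apart.

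Of the Cip/Kip genes, Cdkn1b was the most accessible. It encodes p27KIP1, which restrains CDK2 and accumulates as neural precursors leave the cell cycle. Its promoter percentile was 92.4 in Ctrl1, 93.2 in Ctrl2, 95.5 in cKO1 and 92.9 in cKO2. The lowest percentile of any gene with a promoter peak was 41.98 in Ctrl1, 91.73 in Ctrl2, 59.75 in cKO1 and 44.14 in cKO2. The Ctrl2 value of Cdkn1b thus lay near the lowest possible for a peak, and its peak there ranked 5350 of 7037. The small spread in Ctrl does not show a steady rank. The groups overlapped, since cKO2 lay between the Ctrl libraries. The difference of means, cKO minus Ctrl, was 1.48 percentile points (92.7 ± 0.567 in Ctrl and 94.2 ± 1.82 in cKO, SD, n = 2; exact two-sided permutation test, p = 0.667, adjusted p = 1 over 13196 genes that have one in any list). With a −log10 q of at least 5, the lost peak in Ctrl2 made the Cdkn1b difference 48.05 points, and the groups no longer overlapped (exact permutation test, p = 0.3333), as for 19.5% of genes higher in cKO at that setting. With 2 libraries a group, this test cannot give a p below 0.3333, and no gene could pass a threshold of 0.05.

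The Cdkn1b peak was placed alike in the 4 lists, with its summit 38 to 77 bp after the first start on chromosome 6 (position 134920401), in the first exon. It rested on 94 fragments in Ctrl1, 16 in Ctrl2, 50 in cKO1 and 91 in cKO2. The scaled depth was 58.0, 4.62, 24.1 and 50.4, with Ctrl2 far below the other libraries. The means were 31.3 ± 37.7 in Ctrl and 37.2 ± 18.6 in cKO (SD, n = 2), and the difference of 5.95 was within the spread (exact two-sided permutation test, p = 1; adjusted p = 1 over the 1760 genes with a promoter peak in all 4 lists). Without Ctrl2 the difference was −20.7, and without cKO2 it was −7.18. The depth of Cdkn1b divided by the median depth of these 1760 promoters was 0.904 in Ctrl1, 0.762 in Ctrl2, 1.06 in cKO1 and 0.948 in cKO2. On this scale both cKO libraries lay above both Ctrl libraries, as for 18.3% of the 1760 genes, and the difference of 0.173 had the smallest p that this exact permutation test can give (0.3333).

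Cdkn1a encodes p21CIP1, the CDK inhibitor that p53 induces after DNA damage. Its promoter percentile was 68.0 in Ctrl1, 0 in Ctrl2, 70.01 in cKO1 and 65.9 in cKO2. The 3 libraries with a peak lay close together, with Ctrl1 between the cKO libraries, and the scaled depths were 23.4 in Ctrl1, 8.68 in cKO1 and 18.8 in cKO2. The difference of means was 33.9 points (34.0 ± 48.1 in Ctrl and 68.0 ± 2.91 in cKO, SD, n = 2; exact permutation test, p = 0.667), and without Ctrl2 it was −0.077.

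The Cdkn1a peak did not lie at a start. Its summit was in an intron on chromosome 17, 1773 to 1805 bp after the start of the transcript Cdkn1a-205 and 4.58 to 4.61 kb after the first start of the gene, and it also fell in the promoter of the annotated transcript AC167363.2. No peak summit in any list lay within 2 kb of the first start, the CpG-poor one printed above. With promoters narrowed to 1 kb on either side of a start, Cdkn1a had no promoter peak in any list, and the other 6 inhibitor genes kept theirs in the same libraries.

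Cdkn1c encodes p57KIP2 and is an imprinted gene read from the maternal allele. Its promoter percentile was 63.8 in Ctrl1, 0 in Ctrl2, 0 in cKO1 and 51.0 in cKO2. The peak rested on 30 fragments in Ctrl1 and 18 in cKO2, for scaled depths of 18.5 and 9.96. Its summit lay 54 and 41 bp before the start on chromosome 7 (position 143461050), where the promoter of Gm44732 overlaps. Each group thus held 1 library with the peak and 1 without. The difference of means was −6.38 points (31.9 ± 45.1 in Ctrl and 25.5 ± 36.1 in cKO, SD, n = 2; exact permutation test, p = 1). Its sign turned without Ctrl1 (25.5) and without cKO1 (19.1).

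Of the Ink4 genes, Cdkn2d was the most accessible. It encodes p19INK4D, which, unlike p16INK4A, is present in many neurons. Its promoter percentile was 92.8 in Ctrl1, 0 in Ctrl2, 94.1 in cKO1 and 94.2 in cKO2. The peak rested on 109 fragments in Ctrl1, 51 in cKO1 and 110 in cKO2, for scaled depths of 67.2, 24.6 and 60.9. Its summit lay 43 to 119 bp before the start of Cdkn2d-203 on chromosome 9 (position 21291308). No peak lay within 76 kb of this start in Ctrl2, where the nearest summit was 76436 bp away.

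With all listed peaks, Cdkn2d was the only inhibitor gene with a percentile higher in both cKO libraries than in both Ctrl libraries, as for 20.5% of the 13196 genes, and 0 inhibitor genes were lower in both, as were 2.8%. The 6 inhibitor genes at 0 in Ctrl2 could not be lower in both. The difference of 47.7 points (46.4 ± 65.7 in Ctrl and 94.2 ± 0.103 in cKO, SD, n = 2) came with the smallest p of the exact permutation test (0.3333; adjusted p = 1). It rests on the missing peak in Ctrl2, without which it was 1.31 points. Ctrl1 was a little below both cKO libraries in percentile and had the highest scaled depth of the 3 libraries with the peak.

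Cdkn2c encodes p18INK4C, which limits the division of many progenitors. Its promoter percentile was 69.9 in Ctrl1, 0 in Ctrl2, 74.0 in cKO1 and 59.7 in cKO2. The scaled depths were 22.2, 8.68 and 13.8 in the libraries with a peak, and Ctrl1 lay between the cKO libraries in percentile. The difference of means was 31.9 points (34.9 ± 49.4 in Ctrl and 66.9 ± 10.1 in cKO, SD, n = 2; exact permutation test, p = 0.667), and without Ctrl2 it was −3.02.

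The gene has GENCODE starts at positions 109667189 and 109665372 of chromosome 4, and its strongest peak lay at different ones. In Ctrl1, 3 separate peaks followed the first start, with scaled depths of 22.2 at 200 bp after the first start, 6.78 at 0.813 kb and 16.03 at 1.85 kb, the last being 29 bp after the second start. In cKO1 the only peak lay 439 bp after the first start. In cKO2 a single peak of 2064 bp covered both regions, with its summit 1866 bp after the first start and 49 bp after the second. The Cdkn2c values of the libraries therefore compare different summits.

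At the Ink4 locus on chromosome 4, Cdkn2a and Cdkn2b showed peaks in Ctrl1 and cKO2 alone. Cdkn2b encodes p15INK4B, which transforming growth factor-β induces. The percentile of Cdkn2b was 62.9 in Ctrl1 and 55.6 in cKO2, and that of Cdkn2a was 60.4 and 68.2. Both genes were at 0 in Ctrl2 and cKO1. For Cdkn2b the peak rested on 25 and 17 fragments (scaled depths of 15.4 and 9.41), with its summit 237 and 349 bp after the start at 89311039, in an exon. For Cdkn2a it rested on 22 and 29 fragments (13.6 and 16.05). Between these 2 libraries the neighbours moved in opposite directions, Cdkn2b being lower and Cdkn2a higher in the cKO library. With 1 library of each group this has no replicate check.

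All promoter peaks of Cdkn2a lay at the ARF start. The summits were 363 and 394 bp before it (position 89294653), upstream of the stretch printed above. At the p16INK4A start (position 89282192) no list had a summit within 2 kb, and the nearest summits were those of the ARF peaks, 12824 bp away in Ctrl1 and 12855 bp away in cKO2. In the other libraries the nearest summit of any peak lay 86880 bp (cKO1) and 336248 bp (Ctrl2) from the p16INK4A start. The differences of means were 3.93 points for Cdkn2a (30.2 ± 42.7 in Ctrl and 34.1 ± 48.2 in cKO) and −3.63 points for Cdkn2b (31.4 ± 44.5 and 27.8 ± 39.3; SD, n = 2; exact permutation test, p = 1 for both). Both signs turned with single libraries left out, to −26.2 for Cdkn2a without Ctrl2 and 27.8 for Cdkn2b without Ctrl1.

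**Figure D3:**
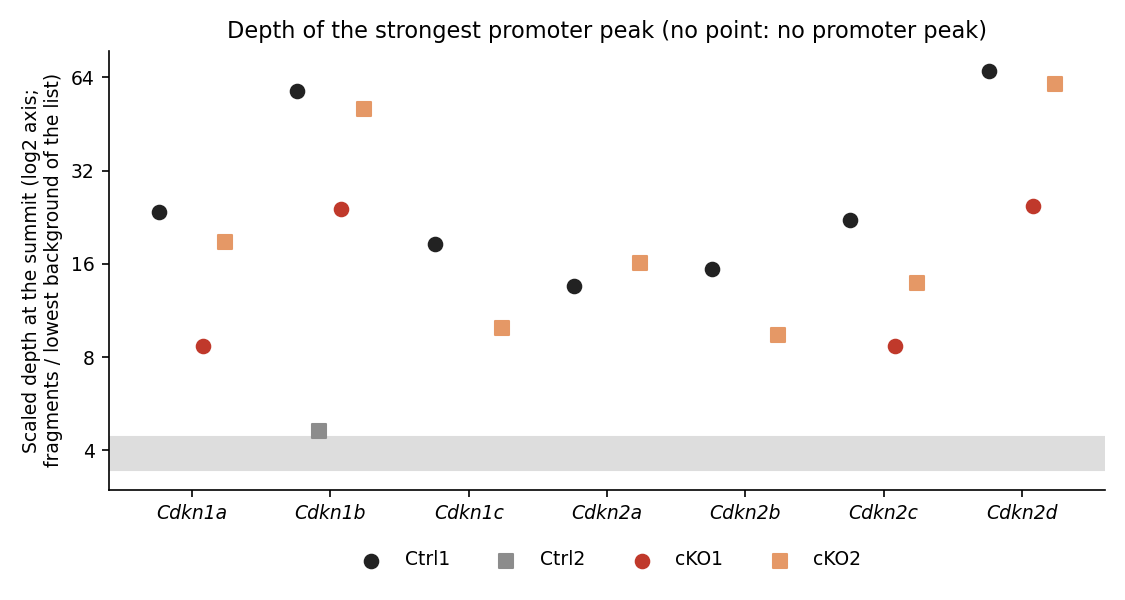
Scaled depth at the summit of the strongest promoter peak (y axis, log2 axis, fragments divided by the lowest background of the list) for each inhibitor gene (x axis) and library, with no point where there is no promoter peak and a grey band over the lowest listed depths of the 4 libraries (3.46 to 4.43). Cdkn1b and Cdkn2d are the highest in each library with their peaks, and the Cdkn1b point of Ctrl2, at 4.62, lies just above the band.

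The order of the genes was alike where the peaks were found. In Ctrl1 the scaled depth fell from Cdkn2d (67.2) and Cdkn1b (58.0) to Cdkn1a (23.4), Cdkn2c (22.2), Cdkn1c (18.5), Cdkn2b (15.4) and Cdkn2a (13.6). In cKO2 it fell from Cdkn2d (60.9) and Cdkn1b (50.4) to Cdkn1a (18.8), Cdkn2a (16.05), Cdkn2c (13.8), Cdkn1c (9.96) and Cdkn2b (9.41). In cKO1 it was 24.6 for Cdkn2d and 24.1 for Cdkn1b, and 8.68 for both Cdkn1a and Cdkn2c. The gap between Cdkn1b and Cdkn2d on one side and the other 5 genes on the other was thus present in each of these libraries, whereas among the other 5 Cdkn2a was the lowest in Ctrl1 and next after Cdkn1a in cKO2. The 3 genes without a peak in cKO1 were 3 of the 4 with the lowest depth in cKO2 and the 3 lowest in Ctrl1.

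The libraries with the longest lists, Ctrl1 and cKO2, were set side by side gene by gene. The ratio of scaled depth, cKO2 over Ctrl1, had a median of 0.842 over the 11826 protein-coding genes that had one in both, with quartiles of 0.730 and 0.967. Cdkn1a (0.803), Cdkn1b (0.869) and Cdkn2d (0.906) lay between these quartiles. Cdkn1c (0.539) and Cdkn2b (0.611) lay below the lower quartile, and Cdkn2a (1.18) lay above the upper. The peaks of these last genes rested on only 17 to 30 fragments in Ctrl1 and cKO2. Whether their ratios exceed the scatter of such low counts was not tested. For Cdkn2c the ratio of the strongest peaks (0.624) sets a summit at the second start against one near the first, and at the second start the scaled depths were 16.03 in Ctrl1 and 13.8 in cKO2. The ratio of cKO1 over Ctrl1 had a median of 0.370 over 8782 genes (quartiles 0.318 and 0.438), and Cdkn1a (0.370), Cdkn1b (0.416), Cdkn2c (0.391) and Cdkn2d (0.366) all lay between its quartiles. These ratios compare single libraries and carry no test.

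In the gene bodies and the 20 kb on either side of all 7 genes together, the lists held 16 peaks in Ctrl1, 4 in Ctrl2, 10 in cKO1 and 15 in cKO2. A single inhibitor gene had 2 to 4 in Ctrl1, 0 to 3 in Ctrl2, 0 to 4 in cKO1 and 2 to 3 in cKO2. The median per protein-coding gene was 2, 0, 1 and 2 in these libraries. The means of the totals were 10 ± 8.49 in Ctrl and 12.5 ± 3.54 in cKO (SD, n = 2), and the difference of 2.5 was smaller than the spread. Outside the promoters of the inhibitor genes, these peaks fell in the promoters of neighbouring genes, in a repeat-masked group after Cdkn1a or, in single libraries, elsewhere. The promoter of Lockd, a long non-coding RNA, and Gm44238, 8.2 kb after the first start of Cdkn1b, had scaled depths of 43.8 in Ctrl1, 15.9 in cKO1 and 36.0 in cKO2. The Faf1 promoter, upstream at −9.29 to −9.41 kb from the first start of Cdkn2c, had 55.5, 14.5 and 37.6 in these libraries and was deeper than the Cdkn2c peak in each. The Kri1 promoter, 3.3 to 3.5 kb after the start of Cdkn2d, had 30.2, 14.0 and 28.2 and was less deep than the Cdkn2d peak in each. None of these neighbours had a peak in Ctrl2. In cKO2 alone, a peak in the promoter of Gm27901 lay 13.7 kb after the start of Cdkn1c (scaled depth 8.30) and one in that of 9630013D21Rik lay 9.76 kb after that of Cdkn2c (6.64). The remaining single peaks lay in no promoter, upstream at −7.62 kb from the first start of Cdkn1b in cKO2 (4.98) and 15.7 kb after the start of Cdkn1c in Ctrl1 (8.01).

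Downstream of Cdkn1a the lists held peaks of another kind. They lay about 11.4, 13.7 and 16.4 kb after the first start, beyond the end of the gene, and 89.2 to 95.5% of their bases are repeat-masked. All 3 were found in Ctrl1, Ctrl2 and cKO1, and all but the nearest in cKO2. They made up 3 of the 4 peaks that Ctrl2 had around all the inhibitor genes. The last of them had a scaled depth of 14.2 in Ctrl1, 23.96 in Ctrl2, 25.1 in cKO1 and 18.3 in cKO2. The groups overlapped. In Ctrl2 the 3 peaks ranked 1014, 2984 and 400 of 7037 by −log10 p, and 0.834% of protein-coding genes had 3 or more window peaks in that library.

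**Figure D4:**
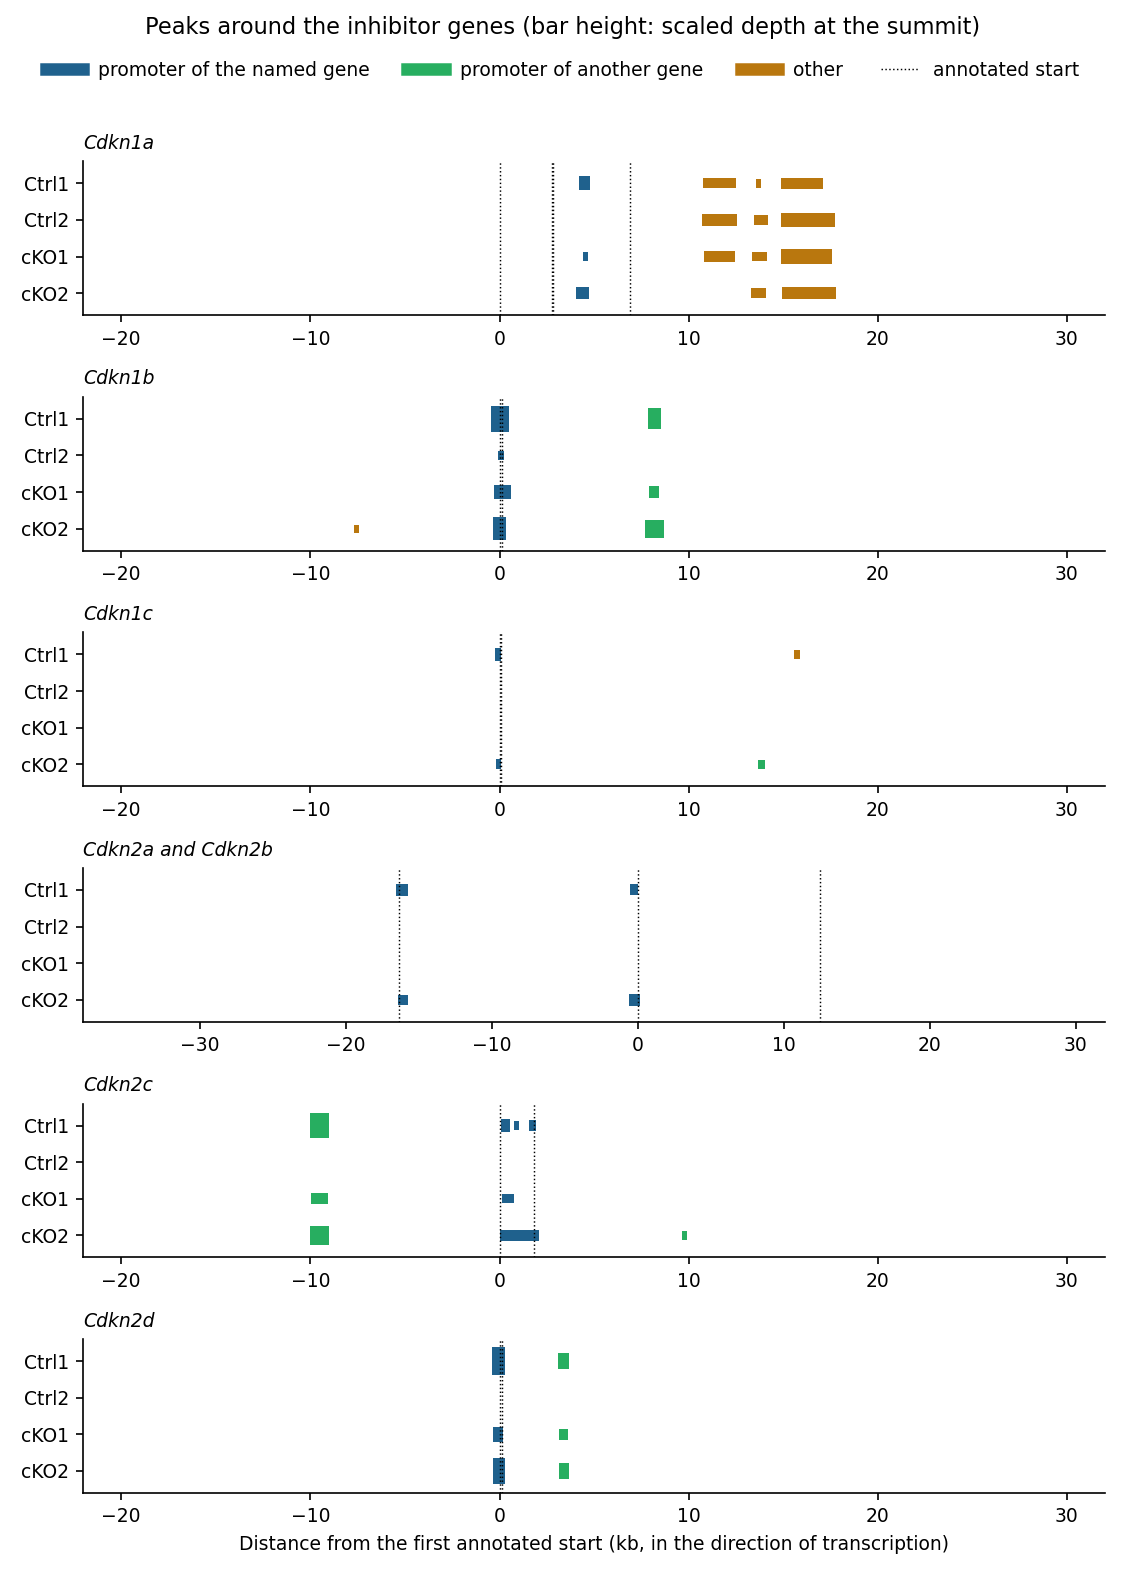
Peaks around the inhibitor genes, one panel per locus with Cdkn2a and Cdkn2b together, drawn by distance from the first annotated start (x axis, kb, in the direction of transcription; that of ARF in the shared panel) in each library (rows), with bar height for scaled depth and dotted lines at annotated starts. The rightmost start of the Cdkn2a and Cdkn2b panel, that of p16INK4A, has no peak in any library, and of the 3 repeat-masked peaks after Cdkn1a all but the nearest appear in all 4.

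Genes with the most similar promoter percentiles over the 4 libraries were found by Euclidean distance. For Cdkn1b these were Tmem237 (1.05 points) and Eed (1.20 points), the latter a core subunit of Polycomb repressive complex 2, with percentiles of 92.5, 94.2, 95.4 and 93.5 in Ctrl1, Ctrl2, cKO1 and cKO2. For Cdkn2d they were Timm13 (0.199) and Cyb5a (0.285), for Cdkn2c Jag1 (0.806) and Usp11 (0.937), and for Cdkn1a Endog (1.30) and Slc41a3 (1.35). Likeness was computed over 4 libraries only and for the inhibitor genes found in 3 or more lists.

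The targets and partners of the inhibitors were taken as a list of 32 genes (CDKs, cyclins, the retinoblastoma family, E2F factors with their partners, and regulators of p53 and p27KIP1). A promoter peak was found for 32 of them in Ctrl1, 3 in Ctrl2, 24 in cKO1 and 31 in cKO2, beside 79.1, 11.5, 56 and 76.4% of genes with a CpG island at a promoter, which all 32 have. The median percentile of the list was 73.3, 0, 76.3 and 70.8 in these libraries, beside 64.2, 0, 64.1 and 64.1 over all genes with a CpG island. Cdk4, the kinase that the Ink4 proteins bind, E2f3, a target of the retinoblastoma protein, and Skp2, which marks p27KIP1 for degradation, had a promoter peak in all 4 lists. Their percentiles ranged from 93.8 to 96.8 for Cdk4, 99.4 to 99.9 for E2f3 and 94.3 to 97.3 for Skp2, and the groups overlapped for each. Cdk4 and Skp2 thus ranked near Cdkn1b, the inhibitor gene with the same pattern of presence. In Ctrl2 this nearness follows from presence, since any gene with a promoter peak there was at 91.7 or above. Of the 32 genes, 3 had a promoter peak in all 4 lists, beside 8.02% of protein-coding genes.

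In 5 of the 32 genes the percentile was higher in both cKO libraries than in both Ctrl libraries, and in 0 it was lower in both, beside 20.5% and 2.8% of the 13196 genes. The count does not set the list apart from other genes, and a gene at 0 in Ctrl2 could not be lower in both. They were Ccne1 and Ccne2, which encode the cyclins that activate CDK2, Trp53 and its ubiquitin ligase Mdm2, and Cks1b, a cofactor of SKP2. All 5 were at 0 in Ctrl2. Ccne1 was at 79.1 in Ctrl1, 85.1 in cKO1 and 89.1 in cKO2. Trp53 was at 69.9, 80.4 and 76.2, Cks1b at 74.0, 87.3 and 81.6, Ccne2 at 63.0, 76.3 and 65.7, and Mdm2 at 78.8, 84.0 and 79.5. None of the 5 could pass the exact permutation test, which cannot give a p below 0.3333 with 2 libraries a group. Among the 13196 genes the lowest adjusted p was 1.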

How the data were processed

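Nuclei of P0 hippocampi (2 Ctrl, 2 cKO, grouped by title) were profiled by ATAC-seq. The authors used Cutadapt for trimming and Bowtie2 for alignment to mm10, removed blacklist regions, mitochondrial reads and duplicates, shifted alignments for Tn5 and called peaks per library with MACS2 (2.2.7.1 in the submitters' notes), without control or pooling. The deposited lists give a fold enrichment (ratio of depth to local background), −log10 p-values and −log10 q-values, and a display score, which was not used. Each list has its own threshold, and read totals are not given in the lists. Blacklist and duplicate removal can lower the depth of a peak.

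Depth was recovered as the whole number of fragments that gave the −log10 p within 0.01 (99.9858% of peaks in Ctrl2, the lowest share; 100% at most). Python 3.11.15, numpy 2.4.6, scipy 1.17.1, pandas 2.3.3, pyfaidx 0.9.0.4 and matplotlib 3.10.9 were used with GENCODE M21 basic (55413 genes), positions 1-based. CpG islands had at least 200 bp, 50% GC and an observed over expected ratio of 0.6. Groups were compared by an exact two-sided permutation test over 6 assignments with Benjamini-Hochberg adjustment over all genes, and depth recovery and test were tested on simulated data. All 7 genes are named, with neighbours whose promoter holds a window peak, the 2 nearest genes in percentile, and genes of the list of 32 with a promoter peak in all or no lists or with groups that did not overlap. The members and lists were chosen with earlier results of these data known. Alternatives covered list length, q threshold, repeats, promoter width, ties, each library left out and the replicate block.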

Additional observations from a re-analysis of the deposited data

How the results depend on the processing

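The direction of most differences depends on single libraries. Without Ctrl2, the percentile difference (cKO minus Ctrl) was −0.077 for Cdkn1a, −3.02 for Cdkn2c and −26.2 for Cdkn2a, and the Cdkn1b difference in scaled depth was −20.7. Without cKO2 these were −30.2 for Cdkn2a and −7.18 for the scaled depth of Cdkn1b, which ranged from −20.7 to 32.6 over the 4 libraries left out. Cdkn1c was at 25.5 without Ctrl1 and 19.1 without cKO1, and Cdkn2b at 27.8 and 24.2. Over the 4 libraries left out, the percentile difference ranged from −0.077 to 67.96 for Cdkn1a, 0.187 to 2.76 for Cdkn1b, −38.3 to 25.5 for Cdkn1c, −30.2 to 38.05 for Cdkn2a, −35.1 to 27.8 for Cdkn2b and −3.02 to 66.9 for Cdkn2c. With genes that lack a promoter peak placed at their mid-rank, Cdkn2a was at −4.06, Cdkn1a at 11.0, Cdkn2c at 8.99, Cdkn2d at 24.8, Cdkn1c at −14.4 and Cdkn2b at −11.6. With a library left out, the difference in inhibitor genes with a promoter peak ranged from −1.5 to 4.5 and that in window peaks from −3.5 to 8.5.

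Over all genes, 2703 were higher and 370 lower in both cKO libraries. Lists of equal size gave 1119 higher, a −log10 q of at least 5 gave 229 lower and mid-ranks gave 1369 lower, and with a library left out the counts ranged from 3139 to 7361 higher and from 671 to 4826 lower. Without Ctrl2 the balance turned, with 3139 higher and 4826 lower, whereas without Ctrl1 it was 7361 and 1094. The cause was not tested. The Cdkn2d difference kept its sign in every alternative run, but its size ranged from 1.31 points without Ctrl2 to 94.15 without Ctrl1. With the replicate block, the Cdkn1b difference in scaled depth was 5.95 (exact sign-flip test, p = 1). The deviations of same-numbered libraries correlated by 0.053 in percentile (13196 genes) and −0.242 in log2 scaled depth (1760 genes). With 2 libraries a group, these correlations cannot show whether same-numbered libraries shared an origin, and the labels do not say. A crossed pairing was added after the data were seen. The fits gave 0 calls at an unadjusted p under 0.05, which says nothing of stability, since these exact tests cannot give a p below 0.5 with either pairing or 0.3333 without. Signal over background limits the report most in Ctrl2, where the strongest promoter peaks had a median scaled depth of 6.06, although its lowest listed scaled depth (3.46) was the lowest of the 4 lists.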
